A study of Mus musculus with 3 samples.

Results

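The sites described here are stretches of open chromatin in Müller cells, the radial glia of the mouse retina. They lay far from the starts of protein-coding genes, and some of them lay inside genes. The DNase I peak lists of 3 biological replicates were joined into regions, with an overlap of 1 bp as the minimum. A region was kept where it held a peak from each replicate, lay on an autosome or X, and was over 100 kb from the start of every protein-coding transcript in the GENCODE M21 annotation of mm10. This gave 34144 sites, called far sites here, out of 145262 regions on these chromosomes that had a peak in all 3 replicates, or 23.5%. Most of the others, 86142, lay over 1 kb and up to 100 kb from a start (nearer distal sites), and 24976 lay within 1 kb of one (promoter sites). The count of far sites depended on the meaning of a gene start. Where the starts of every annotated gene were used, noncoding genes and pseudogenes included, 6978 sites remained over 100 kb from all of them.

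All 3 replicates form a single group, so the series holds no contrast between conditions. The cells were healthy primary Müller cells of the B6NCrl strain at 12 days after birth, with males and females pooled. The replicates have different biosample labels and 1 donor label, so the spread between them may be partly technical. The linked nuclei and DNase protocol was written for cultured cells, and the labels name no sort, no treatment and no time in culture.

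DNase I cuts DNA that is not wrapped tightly in nucleosomes, and the cut sites mark promoters, enhancers and insulators. Enhancers can act over long distances by looping to a promoter, and gene deserts beside developmental genes are known for holding many of them. Insulators and loop anchors are commonly bound by CTCF, whereas the AP-1, TEAD, SOX and NFI families bind mainly enhancers. The gene next to a site is named here by distance alone, which does not show what the site regulates.

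Marker genes were read at promoters as a limited check of the label. The share of all protein-coding promoters open in each replicate is not given here. The marker counts below therefore have no background beside them. Each of the 10 Müller markers had an open promoter in replicates 1, 2 and 3, and none of the 6 rod markers had one in any of them. Macrophage markers differed among the replicates, with 19, 19 and 6 of 19 promoters open in replicates 1, 2 and 3. Replicate 3 also had the fewest peaks, 184544, against 300269 and 281185. No read counts come with the lists, so the depth of each library is unknown.

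The strongest far sites are printed first, because they show how different the sequences of far sites with similar scores were. A peak's strength is the authors' score, a whole number from 1 to 150 whose definition is not given in the sources used here, and sites were ranked by their worst rank over the replicates. Capitals mark matches to CTCF, AP-1, NFI (full site), RFX, TEAD, LHX and other homeobox, E-box, RUNX, MEIS or SOX consensus sequences on either strand, and all runs are the plus strand of mm10, 5′ to 3′. The first 6 lines are the 6 strongest sites, and each has a score of at least 136 in each replicate.
chr15:59759656-59759845: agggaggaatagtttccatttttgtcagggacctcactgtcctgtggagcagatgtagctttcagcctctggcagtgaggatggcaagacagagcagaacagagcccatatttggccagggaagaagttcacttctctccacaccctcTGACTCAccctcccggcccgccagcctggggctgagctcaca
chr13:84348076-84348265: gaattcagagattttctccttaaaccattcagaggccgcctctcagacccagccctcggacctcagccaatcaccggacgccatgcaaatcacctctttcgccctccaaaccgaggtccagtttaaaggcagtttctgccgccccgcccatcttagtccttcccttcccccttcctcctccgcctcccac
chr17:81542376-81542565: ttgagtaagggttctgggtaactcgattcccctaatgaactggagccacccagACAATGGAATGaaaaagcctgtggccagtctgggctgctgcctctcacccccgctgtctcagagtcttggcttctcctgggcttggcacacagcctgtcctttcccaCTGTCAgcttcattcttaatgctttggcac
chr16:93006716-93006905: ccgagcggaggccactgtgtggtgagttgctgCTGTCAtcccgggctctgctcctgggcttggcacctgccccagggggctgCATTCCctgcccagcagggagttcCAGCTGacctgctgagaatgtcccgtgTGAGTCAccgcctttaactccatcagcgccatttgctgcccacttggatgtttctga
chr17:14546056-14546205: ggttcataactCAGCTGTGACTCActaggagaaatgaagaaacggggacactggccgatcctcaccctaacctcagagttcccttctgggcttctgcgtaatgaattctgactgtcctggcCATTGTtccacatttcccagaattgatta
chr13:114011176-114011345: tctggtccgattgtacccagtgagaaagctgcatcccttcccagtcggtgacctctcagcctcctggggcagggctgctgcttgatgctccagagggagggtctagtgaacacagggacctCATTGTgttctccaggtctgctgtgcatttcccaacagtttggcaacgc

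Of these 6 sites, 3 held an AP-1 match and 2 held none of the capitalised motifs or a single SOX match. The first, between Trib1 and 4933412E24Rik, lay 111 kb from the start of Trib1, which encodes a pseudokinase, and scored 148, 144 and 136 in replicates 1, 2 and 3. Its only capitalised match was to AP-1. The site between Runx1 and Setd4 held AP-1, TEAD, E-box and MEIS matches and lay 181 kb from the start of Runx1, a transcription factor gene. It scored 145, 144 and 144, near the top of the scale in every replicate. The 2 intronic sites of the 6 lay in Slc8a1, which encodes a sodium and calcium exchanger, and in Arl15, which encodes a small GTPase-like protein. In the Slc8a1 site the SOX and TEAD matches shared a base, so they print as a single run of capitals.

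A further set shows the strongest site in each of 3 of the richest deserts. Deserts here are stretches over 100 kb from every protein-coding start, which can hold introns and noncoding genes. The last line is the strongest far site outside exons with a CTCF match, chosen after the values were seen.
chr8:6132316-6132505: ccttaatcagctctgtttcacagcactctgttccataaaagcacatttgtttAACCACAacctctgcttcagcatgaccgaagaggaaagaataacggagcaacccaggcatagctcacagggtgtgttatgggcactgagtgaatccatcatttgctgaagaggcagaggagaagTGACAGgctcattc
chr15:69079496-69079665: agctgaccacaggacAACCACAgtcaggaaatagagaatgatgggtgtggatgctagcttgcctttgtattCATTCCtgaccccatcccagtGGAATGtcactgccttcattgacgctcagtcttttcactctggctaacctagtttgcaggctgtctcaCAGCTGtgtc
chr14:89610756-89610925: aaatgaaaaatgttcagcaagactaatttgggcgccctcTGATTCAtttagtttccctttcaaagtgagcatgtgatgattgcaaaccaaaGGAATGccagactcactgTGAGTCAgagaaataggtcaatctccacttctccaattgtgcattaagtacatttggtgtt
chr13:84758616-84758785: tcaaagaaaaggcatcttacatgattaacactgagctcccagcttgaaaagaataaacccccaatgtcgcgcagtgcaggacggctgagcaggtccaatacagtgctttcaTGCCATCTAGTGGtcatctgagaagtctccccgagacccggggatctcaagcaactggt

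The site on chromosome 8 lay 1027 kb from the start of Slc10a2 and 2507 kb from that of Efnb2, and scored 140, 132 and 112 in replicates 1, 2 and 3. On chromosome 14 the strongest site of the Pcdh20 to Pcdh9 desert held 2 AP-1 matches and a TEAD match, 1139 kb from the nearest start, with scores of 140, 122 and 101. The CTCF example between Tmem161b and Ccnh scored 108, 98 and 72, which was lower in each replicate than any of the 6 strongest sites.

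Far sequence held fewer open sites per length than sequence nearer to protein-coding starts, and density was lower the greater the distance. The genome over 100 kb from every start covered 995 Mb without unknown bases, 38.9% of the autosomes and X, and held 34.3 far sites per Mb. Nearer distal sequence held 57.4 sites per Mb and sequence within 1 kb of a start held 389.8. In the peaks of each replicate alone, far regions were 0.619, 0.593 and 0.601 times as dense as nearer distal ones in replicates 1, 2 and 3 (mean 0.604 ± 0.0134, SD, n = 3). All 3 ratios were thus below 1 and close together, although the replicates had 74288, 67129 and 41978 far regions of their own. Far density was below nearer distal density on 20 of 20 chromosomes.

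The median far site lay 216 kb from the nearest start, with an interquartile range of 144 to 368 kb, and the farthest lay 2680 kb away. Over 500 kb from any start there were 5122 sites (15%), and over 1000 kb there were 1127 (3.30%). Density was 45.7 sites per Mb at 100 to 200 kb, 34.5 at 200 to 500 kb, 21.5 at 500 to 1000 kb and 14.2 beyond 1000 kb. The same order was seen in each replicate's own peaks: in replicate 3, the sparsest, the densities were 55.6, 42.6, 26.8 and 18.6 regions per Mb.

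**Figure D1:**
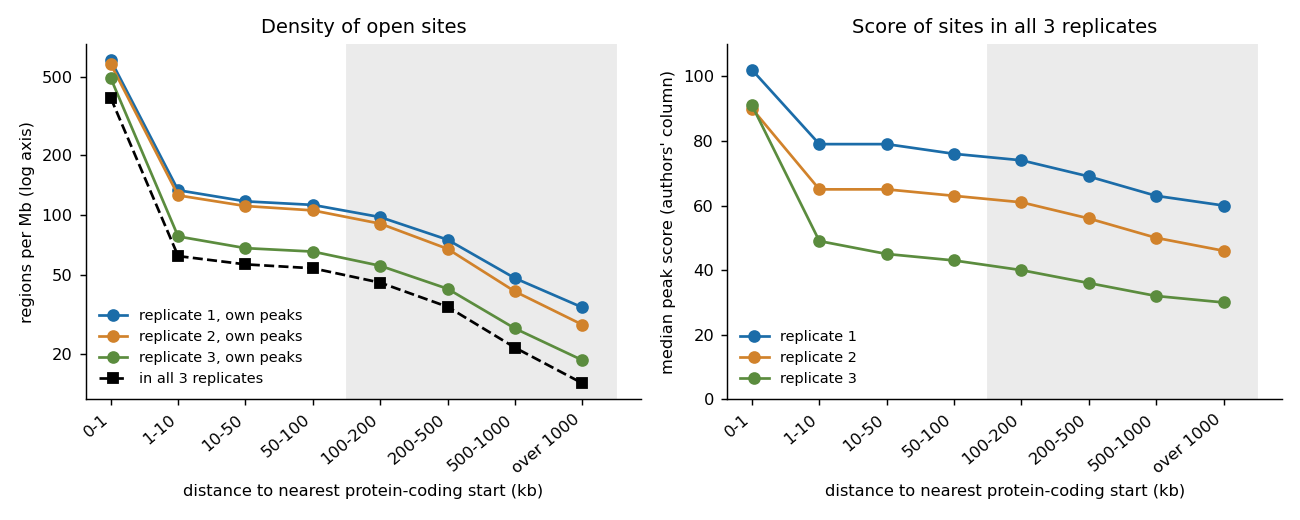
Left, regions per Mb (log axis) against distance to the nearest protein-coding start in kb, for each replicate's own peaks and for regions found in all 3 replicates; right, the median deposited score of the latter in each replicate. Grey marks far sites, where density drops from 45.7 to 14.2 sites per Mb and the median score of replicate 1 from 74 to 60.

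Far sites also carried lower scores than nearer distal sites. Their median score was 70, 57 and 37 in replicates 1, 2 and 3, against 78, 65 and 45 for nearer distal sites and 102, 90 and 91 for promoter sites. The difference between far and nearer distal sites was −8 in each of the replicates (mean −8, SD 0, n = 3; exact sign-flip permutation test, two-sided, p = 0.25, the smallest that 3 replicates allow). When only the strongest 50% of each replicate's peaks were used, the mean difference was −0.667 and the exact sign-flip permutation p was 1. Scores also moved with distance inside the far set. The median went from 74, 61 and 40 at 100 to 200 kb to 60, 46 and 30 beyond 1000 kb. At the 100 kb limit itself there was no step of that kind: the 251 sites from 100 to 101 kb had medians of 78, 63 and 43, and the 256 sites from 99 to 100 kb had 75, 60 and 41.

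Far sites were rare among the strongest sites of the series. Of the strongest 5% of all sites in the 3 replicates, 7263 in number, 5.15% were far, 26.8% were nearer distal and 68.1% were at promoters. Only 1.10% of far sites and 2.26% of nearer distal sites reached that group. Every far, nearer distal and promoter site lay in a hotspot, the wider region that the authors called in each replicate. The peak caller is not named in the sources used here, so this share may have been fixed by how peaks were called. No comparison of the classes is drawn from it. Of far sites 83.1%, 74.6% and 49.7% were in hotspots at the cap of 100 on the −log10 q scale. For nearer distal sites those shares were 82.0%, 76.6% and 50.3%, within 2 percentage points in each replicate.

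The X chromosome stood apart in density. It held 12.7 far sites per Mb, against 30.9 on chromosome 6, the lowest autosome, and 45.4 on chromosome 13, the highest. Nearer distal density was low on X as well, at 21.6 sites per Mb. Median scores of its 876 far sites were 57.5, 46 and 30, lower in each replicate than the 70, 57 and 37 of all far sites.

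Most far sites lay between genes. At their centre 61.3% were between annotated genes, 26.6% were in introns of protein-coding genes, 11.5% were in other genes and 0.644% were in exons. Points placed every 1 kb over the same far sequence gave 71.2%, 19.7%, 8.70% and 0.384%, so the intron share of the sites was above that of the sequence they came from. In each replicate's own far peaks the intron share was 26.4%, 26.9% and 26.2% (mean 26.5% ± 0.343, SD, n = 3). Sites in other genes, which include noncoding RNA genes and pseudogenes, had median scores of 75, 61 and 40, and sites between genes 68, 55 and 36. A start of a long noncoding RNA lay within 1 kb of 734 far sites (2.15%), whose medians were 79, 66 and 50.

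Far sites fell within 938 protein-coding genes, nearly always in introns, and the counts that follow are of all far sites in a gene. Macrod2, which encodes a mono-ADP-ribosylhydrolase, held 78 over 1998 kb. Fhit and Wwox, both at common fragile sites, held 67 and 54, and Npas3, a neural transcription factor gene, held 63. Dlg2, a synaptic scaffold gene, held 61, and Ptprt, a receptor phosphatase gene, held 59. Gm20388 also held 67, but its annotated model spans 4435 kb and overlaps other genes. Msi2, which encodes an RNA-binding protein of neural stem cells, held 48 sites in a gene of only 379 kb. Their medians of 106.5, 97 and 72.5 in replicates 1, 2 and 3 were each well above the 70, 57 and 37 of all far sites. These host genes were listed after their values were seen.

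Among noncoding genes, 3110039I08Rik on chromosome 9 held 55 far sites with medians of 88, 84 and 56. The models Gm49317 and Gm48742 overlap it and share some of them. Gm14005 held 42, Mir99ahg, a microRNA host gene, held 41, and Sox2ot, whose model overlaps the Sox2 locus, held 33. Pvt1, beside Myc, held 31 and Lncpint held 24. Scores were high in Gm14005, with medians of 100.5, 94 and 60.5, and in Lncpint, with 100, 92.5 and 73.5. These were close to or above the promoter medians of 102 and 90 in replicates 1 and 2 and below 91 in replicate 3.

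Far sites were spread over nearly all deserts, at densities that differed widely. The far sequence formed 2538 stretches free of protein-coding starts, with a median length of 180 kb, and 2177 of them held at least 1 far site. The 361 stretches without a site were short, with a median length of 22.7 kb. The 367 stretches with most sites, 14.5% of all, held 50% of the far sites, and they covered 446 Mb of the 995 Mb of far sequence. Among the 588 stretches of 500 kb or more the median density was 28.2 sites per Mb, the interquartile range was 15.7 to 45.3, and 8 had no site.

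**Figure D2:**
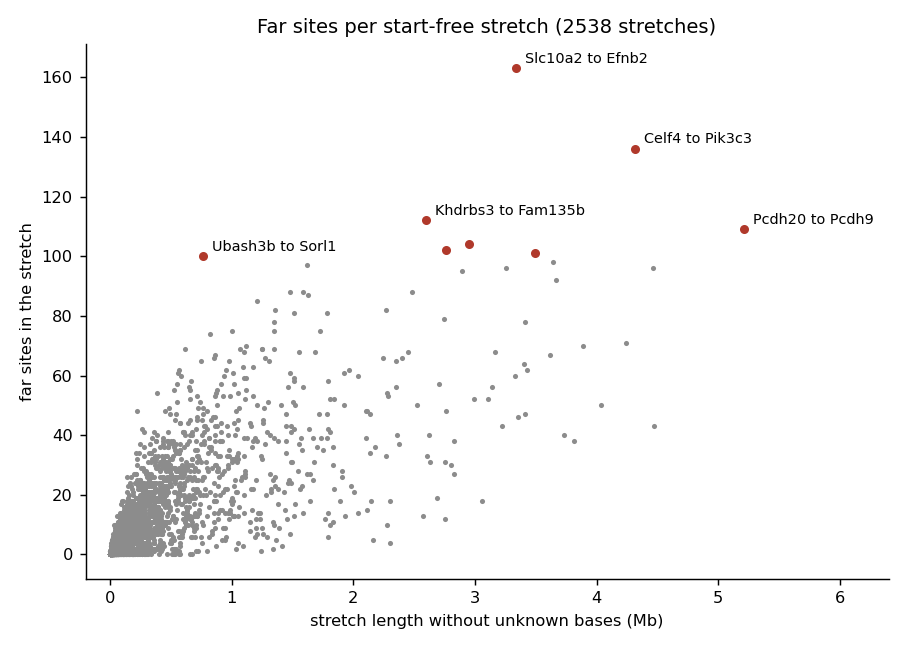
Each point is 1 of 2538 start-free stretches, with its length without unknown bases in Mb on the x axis and its number of far sites on the y axis; red points are the 8 stretches with most sites. Stretches of like length differed, with 163 sites in the 3334 kb of Slc10a2 to Efnb2 and 96 in the 3257 kb of Tenm2 to Mat2b, and like counts were reached at unlike lengths, with 100 sites in the 763 kb of Ubash3b to Sorl1.

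The richest desert lay between Slc10a2, an ileal bile acid transporter gene, and Efnb2, which encodes ephrin-B2, at chr8:5205352-8539362. It held 163 far sites over 3334 kb, or 48.9 per Mb. The own peaks of replicates 1, 2 and 3, shared or not, gave 290, 282 and 197 regions there. Its sites were of ordinary strength, with medians of 67, 53 and 34, and 125 of them lay between genes. The Celf4 to Pik3c3 desert held 136 sites, Khdrbs3 to Fam135b 112, and Pcdh20 to Pcdh9, the longest of them at 5214 kb, 109. The deserts from Epha7 to Map3k7, Nmbr to Cited2 and Zeb2 to Acvr2a held 104, 102 and 101. All 10 far sites farthest from any start lay in the Pcdh20 to Pcdh9 desert, 2418 to 2680 kb away, and their scores in replicate 1 ranged from 26 to 108. The farthest of them, at chr14:91205776-91205985, scored 68, 36 and 21, and its central 150 bp were wholly repeat-masked.

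**Figure D3:**
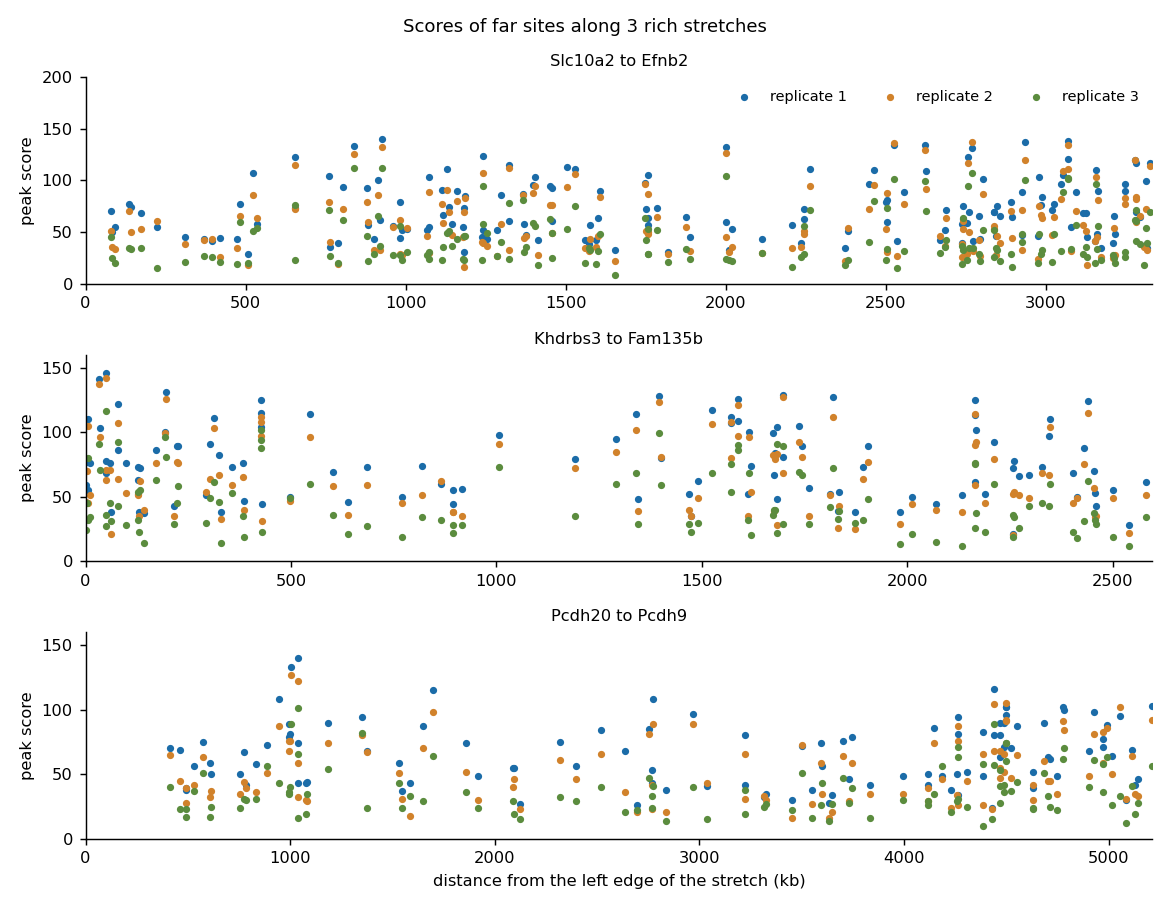
Deposited score of every far site in each replicate (colours) against the distance in kb from the left edge of the stretch, for Slc10a2 to Efnb2, Khdrbs3 to Fam135b and Pcdh20 to Pcdh9. Sites run through each desert with wide gaps between some of them, and the highest scores of replicate 1 are 140, 146 and 140 in the same order, near the left edge in Khdrbs3 to Fam135b only.

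Among the 588 stretches of 500 kb or more, the only ones ranked by density, the densest was of another kind. Between Ubash3b, which encodes a phosphatase-like regulator of receptor signalling, and Sorl1, a sorting receptor gene, chr9:41261689-42024296 held 100 far sites in 763 kb, or 131 per Mb. Of these, 68 lay in noncoding genes and 86% were in clusters of 3 or more. Their medians were 87, 74.5 and 59, above the medians of all far sites in each replicate. The next densest of that length were Rad51b to Zfp36l1 with 112 sites per Mb, Runx1 to Setd4 with 109.1, Rasgrp1 to Thbs1 with 109.0 and Foxo1 to Cog6 with 104. Their lengths were 549 to 615 kb, and 69.6% to 78.7% of their sites were in clusters of 3 or more.

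Long deserts with no far site were few. The longest, at 672 kb without unknown bases, lay on X between Gm10096 and Gm10488 and had no region in any replicate. The next lay between Klra1 and Klra2, genes of natural killer cell receptors, where replicate 1 had 3 regions and the others none. Of the 5 longest empty stretches 3 were on X. No read counts come with the lists, so an empty stretch cannot be told from one where few reads were placed.

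Clustering was common among far sites but less so than nearer to protein-coding starts. When sites with gaps of up to 10 kb were joined, 39.5% of far sites were in clusters of 3 or more, 25.6% were in pairs and 34.9% were alone, while 54.9% of nearer distal sites were in clusters of 3 or more and 23.5% were alone. Far sites were also less dense (34.3 against 57.4 per Mb), and the part of density in the clustered share was not tested. The median gap to the nearest site of the same class was 5.29 kb for far and 3.49 kb for nearer distal sites. In each replicate's own far regions the clustered share was 67.6%, 65.8% and 46.7% (mean 60.01% ± 11.6, SD, n = 3), lowest in replicate 3, which had the fewest peaks. Without replicate 3 the far sites shared by the others numbered 56979 and 59.99% of them were clustered.

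Sites in larger clusters had higher scores. Sites alone had medians of 62, 50 and 31 in replicates 1, 2 and 3, pairs 69, 55 and 36, clusters of 3 to 4 75, 62 and 41, clusters of 5 to 9 84, 71 and 48, and clusters of 10 or more 91, 80 and 56. The order was the same in every replicate. Shares with an AP-1 match ran the other way, from 24.3% of sites alone to 18.3% in clusters of 10 or more, and those with a CTCF match from 1.76% to 0.777%. Such clusters were few: 46 had 10 or more sites, 515 sites in all.

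**Figure D4:**
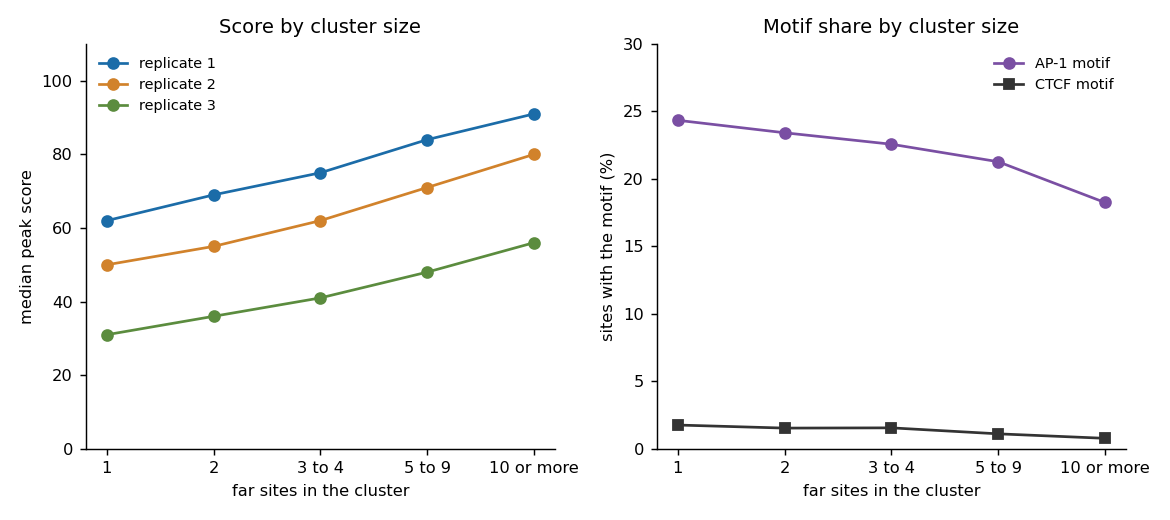
Left, the median deposited score of far sites in each replicate against the number of sites in their cluster (gaps up to 10 kb); right, the percent of these sites with an AP-1 or a CTCF match in the central 150 bp. Scores were higher and motif shares lower in larger clusters, with AP-1 at 24.3% for sites alone and 18.3% for clusters of 10 or more.

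The largest cluster had 18 sites over 56.8 kb in an intron of Msi2, at chr11:88514276-88571085, 147 kb from the nearest start. Its medians were 109, 100 and 78, and the lowest scores in it were 56, 55 and 37, close to the medians of all far sites in replicates 2 and 3. A second cluster, of 16 sites in an intron of Mthfd1l, a mitochondrial folate enzyme gene, had highest scores of 146, 144 and 135. Clusters of 13 sites lay in the Lncpint region beside Klf14, between Myo16 and Irs2, in Ttc28, in Gm14005 near Bcl2l11, in the Ubash3b to Sorl1 desert, in Etv6 and beside Marcks. None of the 10 largest clusters held a CTCF match and 9 held at least 1 AP-1 match, which is to be read beside the 0.777% and 18.3% of sites with these matches in all clusters of 10 or more.

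The exception was a cluster on X. It had 16 sites over 32.4 kb at chrX:50590796-50623185, inside Firre, a long noncoding RNA gene known for its repeated sequence and its role in nuclear organisation. Firre as a whole held 21 far sites, described here after their values were seen. Their scores were moderate and alike, from 43 to 90 in replicate 1, 26 to 74 in replicate 2 and 24 to 56 in replicate 3. None of the 21 had an AP-1 or a TEAD match, against 23.2% and 21.5% of all far sites. The 21 lie in the same gene, so they may not be independent of each other, and this absence was not tested. None had a CTCF match by the strict or a looser consensus either, but these matched only 1.55% and 3.31% of all far sites, so 21 sites are too few to read their absence. Repeat masking covered at most 32% of any of the 21 windows.

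Far sites were sorted by the protein-coding gene with the nearest start and read for 7 gene lists. Of 21646 protein-coding genes, 3763 (17.4%) bordered a far stretch. Among these, 81.4% held the nearest start of at least 1 far site and 14.5% of at least 20, with a median of 5, and the far sequence given to all genes held 34.3 sites per Mb. Each list is described beside those values. Density also fell with distance, from 45.7 sites per Mb at 100 to 200 kb to 14.2 beyond 1000 kb. The lists were not matched for distance, so the part of distance in their densities was not tested.

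Developmental transcription factor genes had many far sites, at a density above that of all genes. Of 74 genes 57 bordered a far stretch, 55 of them had at least 1 far site and 30 had at least 20, with a median of 21. Their far sequence held 47.4 sites per Mb. The own peaks of replicates 1, 2 and 3 gave 97.1, 88.8 and 60.2 regions per Mb, against 74.6, 67.5 and 42.2 for all genes. Sox9, a transcription factor of Müller glia and of cartilage, led with 67 far sites, up to 803 kb away and with medians of 77, 63 and 48. Its own-peak counts were 154, 141 and 76 (mean 124 ± 41.8, SD, n = 3). The desert between Kcnj2 and Sox9 held 58 sites and the one on the other side of Sox9, up to Slc39a11, held 60, the latter at 103 sites per Mb. Nr2f1 and Nr2f2, which encode related orphan nuclear receptors, had 59 and 54, and Zeb2, a zinc finger repressor gene, had 52. Pax6, the eye field regulator, held the nearest start for 35 kb of far sequence and had none there. The desert between Rcn1 and Pax6 held 4 far sites, which lay nearer to the start of Rcn1. Pou4f2, a ganglion cell factor gene, bordered 9 kb and had none.

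The far sequence of Müller glia genes held sites at a density above that of all genes. Of the list's 32 genes 13 (40.6%) bordered a far stretch, against 17.4% of all protein-coding genes. Of the 13 bordering genes, 10 (76.9%) had a far site, against 81.4% of all bordering genes. Among the 13, 2 had 20 or more, and the median was 5, equal to that of all bordering genes. The density over their 2.13 Mb was 48.9 sites per Mb, and 108, 97.9 and 59.3 in the own peaks of replicates 1, 2 and 3. Kcnj2, an inward rectifier potassium channel gene, had 26 far sites, Trpm3, a cation channel gene, had 20, Ptn, which encodes the growth factor pleiotrophin, had 18, and Gpr37, a receptor gene, had 13. The Gpr37 sites were the strongest of these, at 96, 78 and 56. The Kcnj2 sites lay in the desert between Kcnj2 and Sox9 described above. Ptn is also on the list of signalling genes, so its sites count in both lists. Slc1a3, the glutamate transporter gene of Müller cells, bordered 28 kb and had no far site in all 3 replicates, while replicates 1 and 2 had 5 and 6 regions there and replicate 3 had 0.

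Adhesion and axon guidance genes had many sites in long deserts, at a density below that of all genes. All 78 genes bordered a far stretch and had a far site, 54 had at least 20, and the median was 27. Their far sequence covered 109.6 Mb at 22.7 sites per Mb, below the 34.3 of all genes, and the replicates' own densities of 51.4, 43.4 and 28.0 were below 74.6, 67.5 and 42.2 in the same order. Tenm3, a teneurin gene of synaptic wiring, had 91 far sites up to 2329 kb away, with medians of 58, 45 and 30. Efna5, which encodes ephrin-A5, and Tenm4 had 78 each, and Tenm2 had 76. The list is made of genes known to flank deserts, so its counts are not independent of that choice.

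Signalling genes also had far sequence with a density above that of all genes. Of 61 genes found in the annotation (2 symbols had no match) 47 bordered a far stretch, 44 had a far site and 12 had 20 or more. The median was 10 and the density 51.9 sites per Mb. Inhba, which encodes an activin subunit, had 54 with medians of 82.5, 70 and 39.5. Nrg1, a neuregulin gene, had 45, and the gene of its receptor, Erbb4, had 35. Jag1, a Notch ligand gene, also had 35, at 73.5 sites per Mb. Egfr and Fzd7, receptor genes of the EGF and Wnt pathways, bordered 22 and 12 kb and had none. The desert between Sec61g and Egfr held 1 far site, which lay nearer to the start of Sec61g.

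Of photoreceptor and bipolar, macrophage, and odour and pheromone receptor genes, 10%, 15.8% and 2.73% bordered a far stretch. For all protein-coding genes that share was 17.4%. Of 20 photoreceptor and bipolar genes 2 bordered a far stretch: Prkca with 6 far sites and Trpm1 with 5. Their far sequence was 0.089 Mb in all, at 123.6 sites per Mb. Of 19 macrophage genes 3 did: Ptprc, the CD45 gene, with 40, Ly86 with 15 and Irf8 with 9. These 3 bordered 0.744 Mb at 86.02 sites per Mb. The Ptprc regions numbered 71, 72 and 48 in the own peaks of replicates 1, 2 and 3. Odour and pheromone receptor genes were the sparsest list. Of 1463 genes 40 bordered a far stretch, 13 of them had a far site and 1 had 20 or more, at 15.03 sites per Mb. That gene was Olfr1324, whose 24 sites included those in Firre.

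The genes with most far sites overall were Celf4 with 97, Zfp608 with 95, Pik3c3 with 92, Tenm3 with 91 and Efnb2 with 90. Celf4 encodes a neuronal RNA-binding protein and Zfp608 a zinc finger protein. The sites of Zfp608 were the more tightly packed, with 95 sites over 1034 kb of far sequence against 97 over 2352 kb for Celf4.

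In sequence, far sites held fewer CTCF matches and more AP-1 matches than nearer distal sites. Motifs were searched on both strands in the central 150 bp, by consensus, and a match does not show that a factor was bound. CTCF matched 530 far sites (1.55%) and 4.19% of nearer distal sites, with 0.00948% and 0.0272% in windows 1 kb to either side that held no peak. Relative to these flanks the CTCF share was not lower in far sites, at 164 times against 154 times. Those ratios rest on only 6 and 42 flank windows with a match. In each replicate's own peaks the CTCF share was 1.01%, 1.03% and 1.26% in far regions and 2.54%, 2.60% and 3.45% in nearer distal ones. The difference was −1.52, −1.57 and −2.19 percentage points (mean −1.76 ± 0.373, SD, n = 3; exact sign-flip permutation test, two-sided, p = 0.25, the smallest possible). The far share was below the nearer share in 3 of 3 replicates.

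The CTCF share also moved with distance and with base composition. It was 4.59% of sites at 1 to 10 kb from a start, 2.79% at 50 to 100 kb, 1.98% at 100 to 200 kb and 0.887% beyond 1000 kb. Far sites were poorer in G and C, with a median GC content of 45.3% against 50% for nearer distal sites. In windows of 50 to under 55% GC the CTCF share was 2.26% of far and 4.94% of nearer distal sites, and it was lower in far sites in all 5 ranges under 60%. At 60% and above, with 728 far sites, the shares were 3.57% and 3.53%. A looser CTCF consensus, tried after the data were seen, matched 3.31% of far and 8.36% of nearer distal sites.

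AP-1, spelled TGANTCA, matched 23.2% of far and 20.6% of nearer distal sites, and 4.33% and 3.77% of their flanks. Relative to flanks the AP-1 share was not higher in far sites, at 5.35 times against 5.47 times. In the own peaks of replicates 1, 2 and 3 the far share was 21.9%, 21.9% and 19.6% and the nearer share 19.95%, 19.8% and 17.1%. The difference was 1.93, 2.05 and 2.54 percentage points (mean 2.17 ± 0.322, SD, n = 3; exact sign-flip permutation test, two-sided, p = 0.25), higher in far regions in 3 of 3 replicates. AP-1 had the highest share in far sites of the 20 motifs searched. The difference moved with base composition. It stood at 25.1% of far against 24.6% of nearer distal sites in windows of 40 to under 45% GC, and at 21.6% against 20.4% at 50 to under 55%. Far sites had the lower AP-1 share at 55 to under 60% GC, 16.04% against 17.3%, and at 60% and above, 8.79% against 10.1%. With distance the AP-1 share went from 22.0% at 100 to 200 kb to 26.1% beyond 1000 kb.

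Of the other motifs, TEAD (GGAATG) matched 21.5% of far and 18.99% of nearer distal sites, and a short NFI consensus (TTGGCA) 20.2% and 17.1%. SOX (ACAATG) matched 15.1% and 11.3%, and homeobox (TAATTA) 9.23% and 5.83%. Both are rich in A and T, and in the flanks, which are so too, SOX matched 9.62% and 8.01% and homeobox 5.91% and 4.17%. KLF (CCACCC) and the GC box (GGGCGG) were at lower shares in far sites, 9.82% against 14.3% and 2.65% against 6.50%. A TATA-like control (TATAAA) matched 6.25% of far sites and 15.3% of their flanks. The full NFI site can overlap the short one, and matches of different motifs can share bases.

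**Figure D5:**
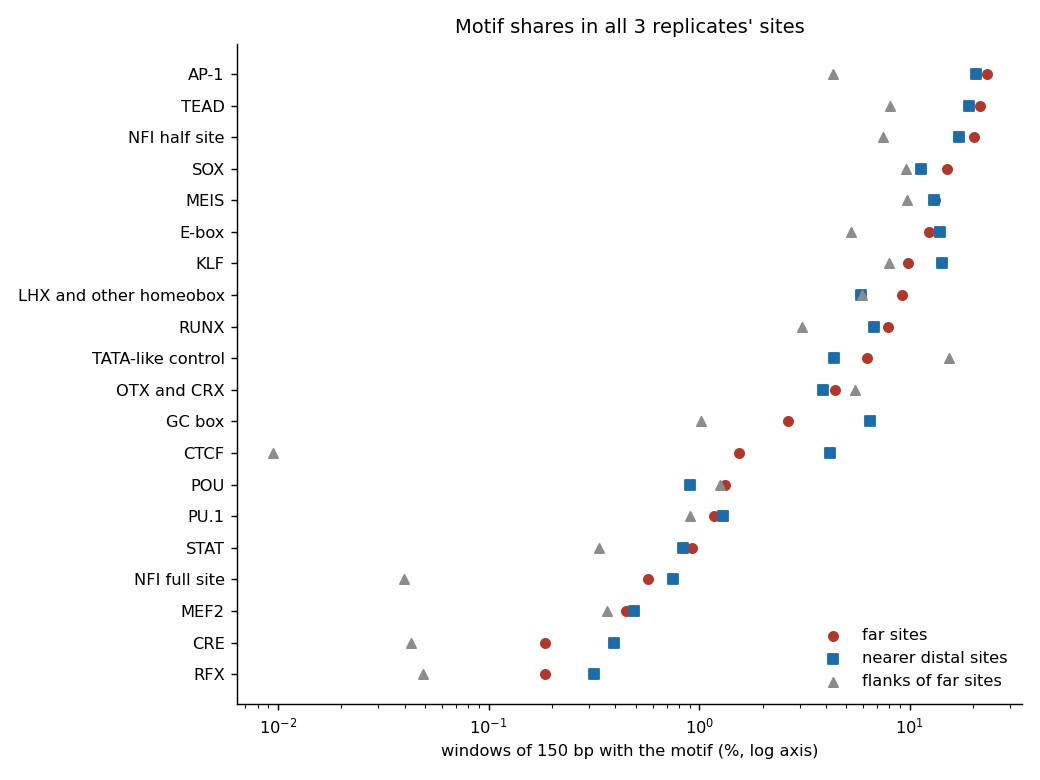
Percent of windows (log axis) that hold each of 20 consensus motifs, for far sites, nearer distal sites and the flanks of far sites, with motifs ordered by their share in far sites. CTCF shows the widest gap between sites (1.55%) and flanks (0.00948%), and AP-1 heads the list at 23.2%.

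The strongest far sites differed from the other far sites in more than score. Among the strongest 5%, 1707 sites, 0.0586% held a CTCF match, against 1.63% of the others. AP-1 matched 29.3% and 22.9%, TEAD 26.1% and 21.2%, and RUNX (TGTGGTT) 10.4% and 7.72%. Of the strongest sites 60.7% were in clusters of 3 or more, against 38.4% of the others, and their median distance was 180 kb against 218 kb. The scarcity of CTCF at the top was not particular to far sites. In the strongest 20% of each class the CTCF share was 0.498% of far and 1.70% of nearer distal sites, and in the next 20% it was 2.34% and 5.83%. This comparison of strong and other sites was added after the data were seen.

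Few far sites were mostly repeat sequence. How reads were placed in repeats is not given in the sources used here, and its part in the shares below was not tested. In 3.55% of them at least 50% of the central 150 bp was repeat-masked, against 3.21% of nearer distal sites and 18.4% of the flanks of far sites. The share was 2.75% at 100 to 200 kb from a start and 8.70% beyond 1000 kb, so the most remote sites held more repeat sequence.

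Far regions were slightly less often reproducible than nearer distal ones. Of 88609 merged regions over 100 kb from a start 38.5% had a peak in all 3 replicates, compared with 39.8% of nearer distal and 53.3% of promoter regions. The difference of −1.26 percentage points was −0.0484 without replicate 1, −1.18 without replicate 2 and −2.94 without replicate 3, so its size rested on which libraries were compared. The commonest other pattern was a peak in replicates 1 and 2 alone, in 22788 regions or 25.7% of the 88609, with median scores of 40 and 30. Regions in replicates 1 and 3 alone numbered 2010 and those in 2 and 3 alone 1000.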

How the data were processed

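DNase-seq peaks of 3 replicates of mouse Müller cells were analysed. Both files of a replicate are on mm10: the authors' peak list has a score from 1 to 150 per peak, and their hotspot list has a −log10 q-value capped at 100. The notes that came with these deposited lists name 1 alignment file per list, that of its own library, and 1 further file shared by all. Names of the aligner and peak caller, and what the score counts, were not given in the sources used here. Scores were ranked or compared within a replicate only. The lists hold no counts, so depth is unknown and no interval from depth could be given.

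Peaks at a repeated position (21, 20 and 23) were removed, and peaks were merged, classed by distance, clustered and searched for motifs with Python 3.11.15 and NumPy 2.4.6. The chromosome lengths of the reference sequence used match mm10. Starts were those of the protein-coding transcripts of 21646 protein-coding genes of GENCODE M21. Using every transcript of these genes was tried first and gave 29800 far sites; the definition was settled after both counts were seen. Lengths leave out unknown bases. A site's class was read at its centre, and list genes were credited with sites whose nearest start is theirs.

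Differences between far and nearer distal sites were tested over the 3 replicates with an exact two-sided sign-flip permutation test, which cannot go below p = 0.25. Other contrasts are descriptions, since sites are not replicates. Named items were the 10 strongest and 10 farthest sites, the 15 richest stretches, the 5 densest of 500 kb or more, the 5 longest empty ones, the 10 largest clusters, and in each list up to 4 genes with most sites and 2 with none. The members, lists, motifs and tests were chosen with earlier results of these data known. Merging, classes, clusters, motif search and the exact test were tested on simulated data. Alternatives covered overlap, peak number, distance, start sites, X, cluster gap, motif window and leaving out each replicate.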

Additional observations from a re-analysis of the deposited data

How the results depend on the processing

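No mean difference changed sign under any alternative run, and no test could pass 0.05. With the strongest 50% of peaks the difference of median score was −0.667 in place of −8, with an exact permutation p of 1 in place of 0.25. In that set far sites numbered 13599, the density ratio to nearer distal sites was 0.461, 26.02% were in clusters, 28.1% were in coding introns, the reproducible percent differed by −2.29 points, and 6 of the 15 richest stretches stayed among the richest. With the same number of peaks per replicate the density ratio was 0.544, the intron share 27.3% and the reproducible difference −0.299. At 50 kb in place of 100 kb there were 53410 sites, a ratio of 0.675, an intron share of 33.1% and a difference of −0.624; at 200 kb these were 18557, 0.513, 18.4% and −1.72. With starts of genes of any biotype there were 6978 sites, 32.9% were in coding introns and 0 of the 15 richest stretches stayed. With 1 start per gene the ratio was 0.629, the intron share 36.7% and 9 of 15 stayed. With every transcript of protein-coding genes, added after the data were seen, the ratio was 0.575 and the intron share 19.9%. Gaps of 5 and 20 kb put 21.8% and 61.4% of far sites in clusters.

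Leaving out each replicate gave 35000 to 56979 far sites, 40.7% to 59.99% in clusters, 26.5% to 26.9% in introns and reproducible differences of −2.94 to −0.0484. In each of these ranges the outlying value was that without replicate 3, except −0.0484, which was without replicate 1. CTCF differences ranged from −3.70 (looser consensus, added after the data were seen) to −1.55 points and AP-1 differences from 1.56 to 2.82. The causes of these shifts were not tested. Unknown depth limits what a missing peak means in replicate 3, which had the fewest.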

Other observations

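Far regions found in replicates 1 and 2 but not 3 differed in motif content from those in all 3. The PU.1 consensus (GAGGAAGT), named for a factor of macrophages and other blood cells, matched 2.08% of the 22788 regions in replicates 1 and 2 alone, 1.17% of the 34144 far sites and 1.01% of the 4648 regions in replicate 3 alone, with 0.879%, 0.906% and 0.841% in their flanks. Among nearer distal regions the same shares were 3.74%, 1.301% and 1.10%. Macrophage promoters were open at 19, 19 and 6 of 19 genes in replicates 1, 2 and 3. The share of all protein-coding promoters open in each replicate is not given here. Within 1 kb of any protein-coding start the own peaks gave 605, 578 and 490 regions per Mb in the same order. The part of macrophages in the regions of replicates 1 and 2 alone was not tested.

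AP-1 matched 22.1% of far regions in replicates 1 and 2 alone, 23.2% of those in all 3, and 7.57% of those in replicate 3 alone, where the flanks had 4.30%. Far regions of replicate 3 alone had a median score of 18, against 37 for its far sites shared by all 3.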
